A study of Mus musculus with 30 samples.

Results

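Myh11, the smooth muscle myosin heavy chain, was used to sort scrapings of mouse colon epithelium into a high and a low set. The libraries were chosen by their measured Myh11 level. In each of the 6 groups of the study the 2 libraries with the highest and the 2 with the lowest Myh11 CPM (the count scaled to a library total of 1000000) were taken. This gave 12 Myh11-high and 12 Myh11-low libraries, 24 of the 30 in the series, and left 1 middle library per group. High and low libraries were compared with the group as a covariate, so that sex and treatment were balanced between them.

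All mice were wild-type C57BL/6J, 5 to 10 weeks old at the start, with 5 mice of 1 library each in every group. Female vehicle and male vehicle mice were given saline and killed at 9 weeks. Female and male AOM/DSS mice received the carcinogen azoxymethane (AOM) once at 10 mg/kg by intraperitoneal injection, then dextran sulfate sodium (DSS), which irritates the gut lining, at 2.5% in drinking water in 3 cycles, and were killed at 9 or 15 weeks. The epithelial layer was scraped off the lamina propria by hand, and its RNA was sequenced as poly(A)-selected stranded mRNA. No vehicle group was killed at 15 weeks.

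Smooth muscle of the colon lies in the muscularis mucosae just beneath the crypts and in the thick outer muscle coat, and also in the walls of vessels. Its cells contract when the light chain of myosin is phosphorylated, and they are told apart by a myosin, actins and actin-binding proteins that the epithelium hardly makes. The lamina propria around the crypts also holds fibroblasts, blood and lymphatic vessels, pericytes, nerves and immune cells.

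Myh11 (chr16:14194527-14291408, minus strand, GRCm38) was low in nearly all libraries and far apart in one. In female vehicle mice the low libraries had 0.456 and 0.540 CPM, the middle one 1.41 CPM and the high libraries 1.54 and 12.6 CPM. In male vehicle mice the low libraries had 8.23 and 12.7 CPM, the middle one 19.3 CPM and the high libraries 35.9 and 1534 CPM. The highest of these was male vehicle replicate 1, with 43046 Myh11 counts, and every other library of the series had at most 44.9 CPM.

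In female 9-week AOM/DSS mice the low libraries had 2.06 and 7.84 CPM, the middle one 12.3 CPM and the high libraries 12.9 and 44.9 CPM. In male 9-week AOM/DSS mice the low libraries had 2.50 and 3.17 CPM, the middle one 9.03 CPM and the high libraries 14.3 and 16.0 CPM. The middle library lay close to the nearer high library in all 3 female groups, so the edge between middle and high was thin there.

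In female 15-week AOM/DSS mice the low libraries had 0.294 and 0.853 CPM, the middle one 1.69 CPM and the high libraries 1.83 and 2.57 CPM. In male 15-week AOM/DSS mice the low libraries had 0.111 and 0.410 CPM, the middle one 3.83 CPM and the high libraries 8.27 and 12.9 CPM. High and low were therefore relative to the group: the male vehicle low libraries exceeded both high libraries of the female 15-week group. The 12 low libraries held 3 to 349 Myh11 counts and the 12 high ones 39 to 43046.

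**Figure D1:**
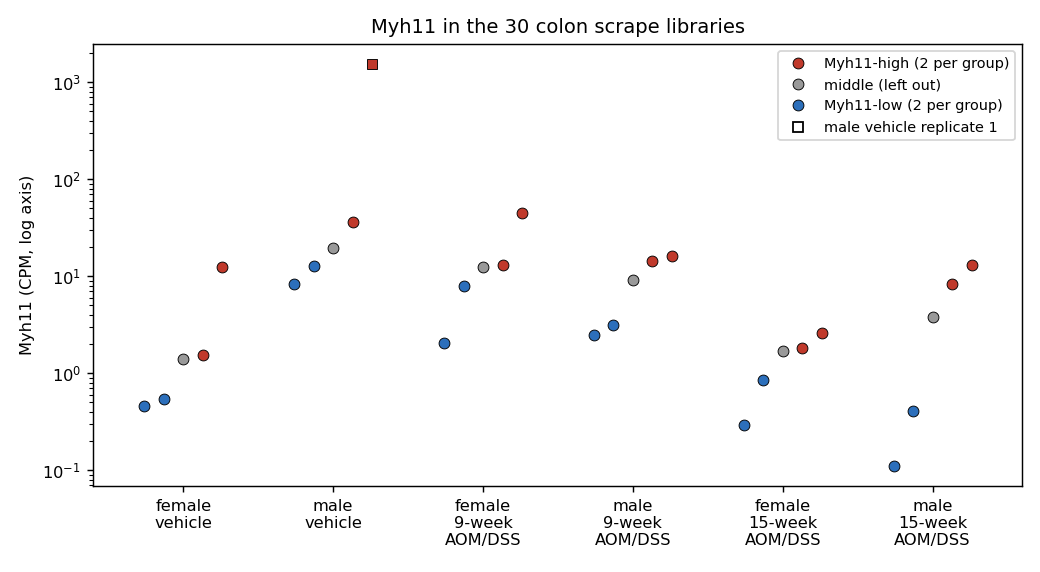
Myh11 CPM (log axis) in each of the 30 libraries by study group, ordered within the group; red points are the 2 high, blue the 2 low and grey the middle library, and the square is male vehicle replicate 1. That library sits at 1534 CPM and the other 29 at or below 44.9 CPM.

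Acta2 (smooth muscle actin) and Des (desmin, the intermediate filament of muscle), the other markers of the high set, ranked the libraries almost as Myh11 did. When the mean of both ranked the libraries, 21 of the 24 kept their level, 3 became the middle of their group and 0 changed sides. Acta2 was at 2.75 to 41.0 CPM in the 11 high libraries other than male vehicle replicate 1 and at 0.673 to 19.4 CPM in the 12 low ones. In male vehicle replicate 1 it was at 1185 CPM, and Des was at 725 CPM.

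The series held 9265804 to 30806392 counts on genes per library (median 24697064), and 2 of the shallower libraries, female vehicle replicate 5 (9265804) and male 15-week AOM/DSS replicate 4 (14619526), were low libraries. Counts on genes averaged 25006036 ± 2808419 (SD, n = 12) in the high and 23534255 ± 6332296 (SD, n = 12) in the low libraries, and the difference did not exceed the spread in an exact two-sided permutation test within groups (p = 0.519, adjusted over 3 measures 0.609). Genes with at least 1 count numbered 20084 ± 852 in the high and 19577 ± 1086 in the low libraries (exact permutation p = 0.113, adjusted 0.338). Mitochondrially encoded genes took 7.71 ± 5.25% and 8.54 ± 3.53% of the counts (exact permutation p = 0.609, adjusted 0.609). None of these measures differed beyond the spread with this ranking, but ranking by Acta2 and Des gave 703 more genes detected in the high libraries (exact permutation p = 0.0136) and a mitochondrial share that differed by -2.48 points (exact permutation p = 0.0216).

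The Myh11-high libraries carried more RNA of contractile and matrix genes. All tested genes of the blood endothelium, lymphatic and pericyte lists had positive fold changes too, though most were not called. Epithelial identity genes were at nearly equal levels. The median log2 fold changes of colon epithelial cell types ran from -0.52 for tuft cell genes to 0.16 for crypt stem cell genes. Myh11 set aside, 68 of 16276 tested genes were called higher in the high libraries, which is 0.418%. Their log2 fold changes ran from 0.64 to 4.18 with a median of 1.71, while the median over all tested genes was -0.0016. One gene, Ccnj, was called lower, which is 0.00614% of those tested. A call took an adjusted p under 0.05 from edgeR's quasi-likelihood test over all tested genes, a log2 fold change beyond 0.4 and a mean FPKM (fragments scaled to transcript length and library depth) of at least 1 in the high or the low libraries. Because the libraries were ranked by Myh11, these calls describe which genes went with it and are no independent evidence of anything about them. In RNA of whole scrapings, more cells of a type and more RNA per cell cannot be told apart.

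The number and size of the differences leaned on male vehicle replicate 1. Without that library 25 of 16442 tested genes were called higher (0.152%) and 0 lower (0.0%), where 810 were higher and 271 lower at an unadjusted p under 0.05. All 25 were among the 68, of which they made up 36.8%. Of the 68 genes 52 had a mean FPKM of at least 1 in the high libraries without it, so the others passed the FPKM minimum through that library. The median fold change of the 68 was 1.53 on the log2 scale. They were chosen as higher in the same other libraries, so that none turned negative is no sign of stability, and genes not so chosen did turn, such as Mylk (0.01 to -0.33) and the fibroblast gene Pi16 (0.57 to -0.62). DESeq2 called 91 higher and 2 lower without that library.

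The number of calls also moved with other single libraries. It was 5 without male vehicle replicate 3 or without male vehicle replicate 4, 20 without female vehicle replicate 3 and 27 without male 15-week AOM/DSS replicate 3. It was 31 without female 9-week replicate 2, 33 without female vehicle replicate 1, 35 without male 15-week replicate 4 and 38 without male 9-week replicate 1. It was 40 without female 15-week replicate 1, 42 without male 15-week replicate 1 and 43 without female 9-week replicate 5. It rose to 111 without female vehicle replicate 2 and to 119 without female 9-week replicate 4. The median log2 fold change of the 68 genes lay between 1.48 and 1.94 in these fits. The genes were chosen as higher in nearly the same libraries, so a steady median is no sign of stability.

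A gene was called separated in a group when both high libraries lay above both low ones on log2 CPM. Of the 68 genes, 8 were separated in 6 of 6 groups and 33 in 5 or 6, and the fewest for any of them was 3 groups. Over all tested genes 12 (0.0737%) were separated upward in 6 groups, 0 were separated downward in 6, and 97 (0.596%) were separated upward in 5 or 6. The 4 others of the 12 were Lmod1, Adam33, Stmn2 and Lepr, named here after their values were seen, each with a mean FPKM under 1 in both sets. The middle libraries, which took no part in the fit, had a mean between those of the high and the low libraries for 63 of the 68. By the rule they lie between the sets in Myh11, and the 68 were chosen for a gap between the sets. A mean in between was thus likely beforehand and is no independent evidence.

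Contractile genes were among the called genes with the largest fold changes, as was Pgm5, which is on none of the lists. Of 20 genes on the smooth muscle contractile list other than Myh11, 7 were called higher and 0 lower, 20 had a positive fold change, and the median was 1.70, or 1.23 with 5 called without male vehicle replicate 1. The list's summed level was 409 to 895 CPM in 11 high libraries (9614 CPM in male vehicle replicate 1) and 426 to 641 CPM in the low ones. These sums overlapped between the sets, with medians of 634 and 525 CPM over 12 and 12. In the low libraries Acta2 was at most 19.4 CPM and Des at most 9.19 CPM, so other members made up most of the sum there.

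Cnn1 (calponin 1, an actin-binding protein of differentiated smooth muscle, chr9:22099281-22109630) had the largest fold change of all called genes. It was at 0.135 to 6.05 FPKM in 11 high libraries and 120.0 FPKM in male vehicle replicate 1, with a median of 1.03 over the 12, and at 0 to 1.35 FPKM in the low libraries, with a median of 0.104. The 2 sets overlapped across groups and in none of the 6 groups. Its log2 fold change was 4.18 ± 0.68 (SE), or 3.17 ± 0.53 without that library. Both low libraries of the male 15-week group had 0 Cnn1 counts, which allows up to 3 counts, or 0.111 and 0.205 CPM, for counting error alone.

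Actg2 (smooth muscle gamma actin, the main actin of visceral muscle) was at 0.473 to 13.5 FPKM in 11 high libraries, 403 FPKM in male vehicle replicate 1 and 0 to 5.22 FPKM in the low libraries. The log2 fold change was 3.66 ± 0.66, or 2.68 ± 0.44 without that library, and 5 of 6 groups were separated. Acta2 was at 1.0 to 16.8 FPKM, 495 FPKM and 0.238 to 7.78 FPKM in the same order, with a log2 fold change of 2.58 ± 0.53, or 1.94 ± 0.29 without that library, and 6 of 6 groups separated. Acta2 and Actg2 are close copies of one another, and reads from stretches they share may have been split or left out.

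Tagln (transgelin, an actin cross-linker) had a log2 fold change of 3.11 ± 0.60, from 0.610 to 24.8 FPKM in 11 high libraries, 567 FPKM in male vehicle replicate 1 and 0 to 9.02 FPKM in the low ones. Myl9, the regulatory light chain that is phosphorylated to start contraction, was at 1.32 to 13.5 FPKM, 464 FPKM and 0 to 5.80 FPKM, with a log2 fold change of 2.60 ± 0.58. Cnn1, Actg2, Tagln, Myl9 and Acta2 were the 5 contractile genes still called without male vehicle replicate 1. Des (3.19 ± 0.71, then 2.28 ± 0.50) and Synm, whose product synemin binds desmin filaments (4.09 ± 0.77, then 2.82 ± 0.52), were called only with it, and Synm had a median of 0.0921 FPKM in the high libraries.

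The 13 contractile genes not called ranged from low to abundant. Lmod1 (leiomodin 1, which seeds actin filaments) had a log2 fold change of 3.33 ± 0.59 and a median of 0.182 FPKM in the high libraries, and its mean FPKM was under the minimum for a call in both sets. Synpo2 had 2.16 ± 0.60 at a median of 0.227 FPKM and missed the adjusted p threshold. Tpm1 (tropomyosin 1) was at 85.8 to 377 FPKM in the high and 90.9 to 145 FPKM in the low libraries, with a log2 fold change of 0.17 ± 0.13. Csrp1 had 0.75 ± 0.31, which was 0.35 ± 0.09 without male vehicle replicate 1. Mylk, the kinase of the light chain, had 0.01, and -0.33 without that library.

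**Figure D2:**
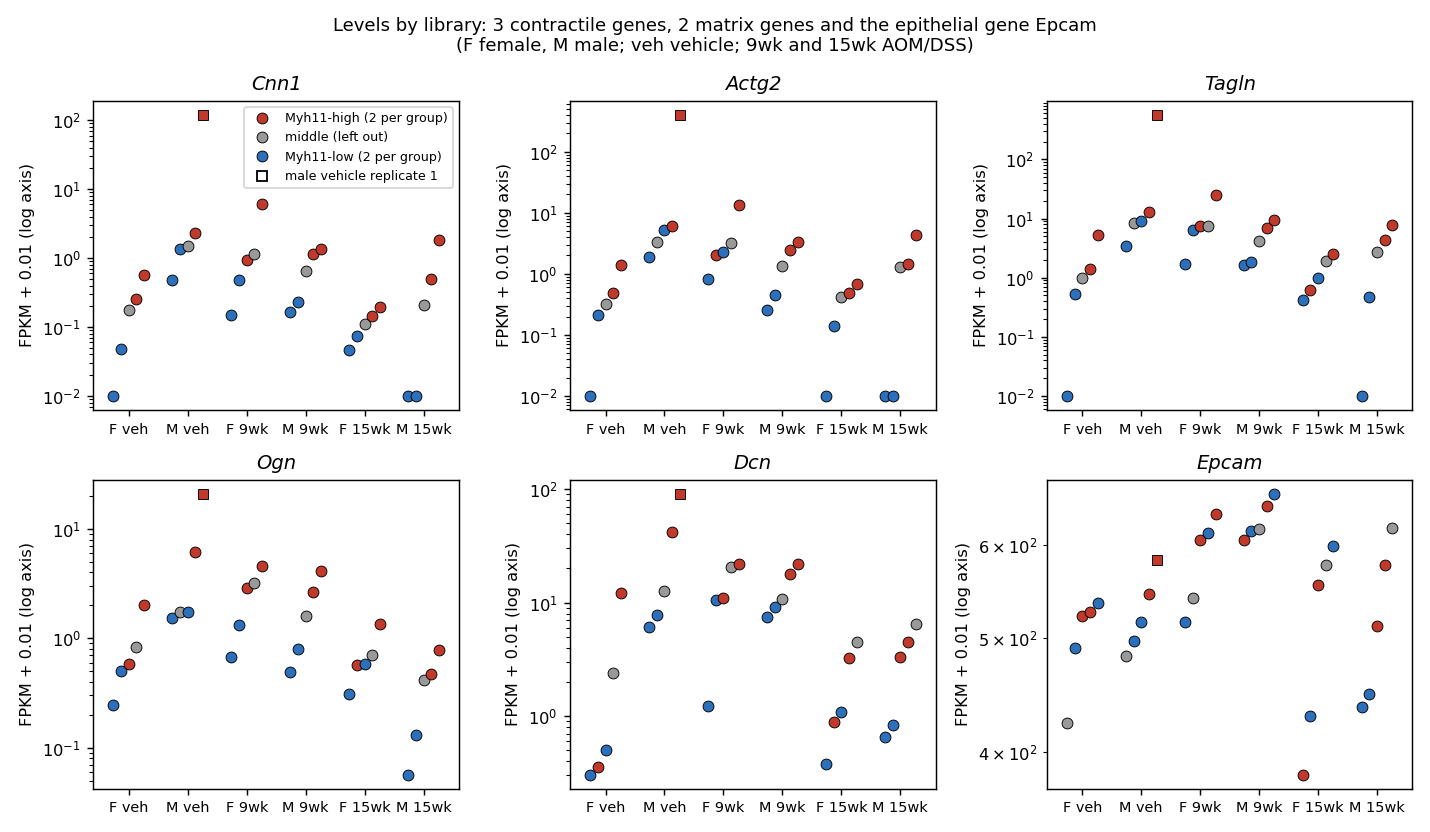
FPKM plus 0.01 (log axis) of 3 contractile genes, 2 matrix genes and Epcam in each library by study group, with red for the 2 high, grey for the middle and blue for the 2 low libraries and a square for male vehicle replicate 1. Cnn1 is above its group's low libraries in all high libraries, while Epcam, an epithelial adhesion protein, mixes high and low libraries and had a log2 fold change of 0.01.

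Contractile genes are classic targets of serum response factor, which binds the CArG box, so the start regions of the called genes were searched for it. The 250 bases before each gene's start were read from RefSeq (GRCm38.p6), and an exact match on either strand was counted. Of the 68 called genes 48 had such a window and 2 of them held a match (4.17%), against 1.44% of 11292 tested genes with a window and 482 of 32851 windows in all (1.47%). Of the contractile list with Myh11, 1 of 18 genes with a window held one. The pair that matched, Myl9 and Fermt2 (kindlin 2, which activates integrins), are printed because each holds the motif, shown in capitals, starting 161 and 204 bases before the RefSeq start. Each sequence runs 5′ to 3′ on the gene's strand and stops where the authors' annotation has the gene begin, which is upstream of the RefSeq start. Myl9 is from the plus strand of chr2:156775214-156775419 and Fermt2 from the minus strand of chr14:45530119-45530315. A match is a description of the letters and not a bound site, and its absence says only that these letters are not in the window.
Myl9: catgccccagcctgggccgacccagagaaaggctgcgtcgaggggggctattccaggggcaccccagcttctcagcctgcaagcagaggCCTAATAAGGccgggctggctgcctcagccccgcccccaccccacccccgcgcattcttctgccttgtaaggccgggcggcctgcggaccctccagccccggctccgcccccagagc
Fermt2: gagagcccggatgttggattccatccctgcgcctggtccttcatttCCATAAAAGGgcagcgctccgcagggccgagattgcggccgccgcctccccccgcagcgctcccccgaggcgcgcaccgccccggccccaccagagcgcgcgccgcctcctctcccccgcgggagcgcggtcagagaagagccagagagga

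Genes that excite or relax smooth muscle gave fewer calls than the contractile list. Of 11 tested genes of the excitation list 1 was called higher, against 0.418% of all tested genes. Of the 11, 9 had a positive fold change and the median was 0.98, or 0.58 without male vehicle replicate 1. The called gene was Cav1 (caveolin 1, the coat of membrane pits in muscle, endothelium and fibroblasts), at 0.264 to 6.38 FPKM in 11 high libraries, 43.5 FPKM in male vehicle replicate 1 and 0 to 3.05 FPKM in the low ones, with a log2 fold change of 2.03 ± 0.37. Pde5a, which degrades cyclic GMP, was at 5.12 to 12.8 FPKM in the high and 7.07 to 15.0 FPKM in the low libraries, and its log2 fold change was -0.07 ± 0.09.

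Transcription factors of the muscle lineage had a median of 1.30 over 10 tested genes, with 1 called higher. That gene was Tcf21, a factor of gut and kidney mesenchyme, with a log2 fold change of 1.85 ± 0.37. Srf itself was at 6.51 to 12.4 FPKM in the high libraries and 5.01 to 9.78 FPKM in the low ones, with a log2 fold change of 0.22 ± 0.09, and its cofactor Mkl1 had 0.09 ± 0.08. Neither Srf nor Mkl1 passed the fold change threshold, and Myocd, the myocardin cofactor, was too low to be tested.

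Genes of cells that pace the muscle and nerves that drive it were counted by list, and no list was tested as a group. Over all tested genes 0.418% were called higher. Of 6 genes of interstitial cells 1 was called higher, Pdgfra (1.51 ± 0.36), a growth factor receptor that fibroblasts share, while Kit, the receptor that marks pacemaker cells, had -0.29 ± 0.14 and the chloride channel Ano1 0.52 ± 0.26. Enteric neuron genes had 10 of 12 positive and a median of 0.75. None of the 12 was called, which at the share over all tested genes says little. Of the 3 members with the highest mean FPKM, Uchl1 and Snap25 had 0.96 ± 0.44 and -0.19 ± 0.17. The third, Tac1, had -0.0032 to 0.181 in fits that left out 1 library. Members under 1 FPKM had larger values, with the neuropeptide Vip at 3.29 ± 0.84, the neuronal filament gene Prph at 2.31 ± 0.73 and Stmn2, separated in 6 of 6 groups, at 2.66 ± 0.52. Of the glial genes 3 could be tested, 0 were called and the median was 0.30. Sox10, S100b and Gfap, which define glia, were too low to be tested.

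Fibroblast and matrix genes gave the most calls of any list. Of 21 tested genes 10 were called higher and 0 lower, 21 had a positive fold change, and the median was 1.67. Without male vehicle replicate 1 the median was 1.46 and 6 were called. Their summed level was 51.9 to 802 CPM in 11 high libraries, 2305 CPM in male vehicle replicate 1 and 31.8 to 363 CPM in the low libraries, with medians of 308 CPM and 77.0 CPM over 12 and 12.

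Dcn (decorin, a proteoglycan that binds collagen fibrils) was at 0.344 to 41.6 FPKM in 11 high libraries, 91.2 FPKM in male vehicle replicate 1 and 0.294 to 10.4 FPKM in the low libraries. Its medians were 11.6 and 1.15 FPKM and its log2 fold change 2.17 ± 0.43, or 2.02 ± 0.42 without that library. Ogn (osteoglycin, a relative of decorin) had a smaller error, with a log2 fold change of 2.11 ± 0.28, or 1.90 ± 0.25 without that library, and was the matrix list's gene separated in 6 of 6 groups on log2 CPM. Its levels were 0.464 to 6.09 FPKM in 11 high libraries, 21.0 FPKM in male vehicle replicate 1 and 0.0465 to 1.73 FPKM in the low ones.

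Of the 7 collagens on the list 6 were called. Col3a1 (fibrillar collagen of loose tissue) was at 0.765 to 24.5 FPKM in 11 high libraries, 69.2 FPKM in male vehicle replicate 1 and 0.372 to 9.60 FPKM in the low ones, with a log2 fold change of 1.98 ± 0.36. Col1a1 had 1.71 ± 0.39, Col1a2 1.64 ± 0.38, Col6a1 1.61 ± 0.31, Col6a2 1.60 ± 0.32 and Col6a3 1.67 ± 0.34. Col5a1 had 1.66 ± 0.44 and was not called, and without male vehicle replicate 1 Col1a1, Col1a2 and Col6a3 were not called either. Sparc (osteonectin, a collagen chaperone of the matrix) had 1.59 ± 0.37 and Dpt (dermatopontin) 2.10 ± 0.39.

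Signals that the mesenchyme sends to the crypt had positive fold changes in all 13 tested niche genes. Of these 2 were called higher, against 0.418% of all tested genes. The median was 1.51, or 1.33 with 0 called without male vehicle replicate 1. Bmp5, a ligand that favours differentiation at the crypt top, was at 0.0979 to 2.55 FPKM in 11 high libraries, 4.27 FPKM in male vehicle replicate 1 and 0 to 1.07 FPKM in the low ones, with a log2 fold change of 1.51 ± 0.32. Dkk3 had 1.63 ± 0.34. Bmp4 had 1.32 ± 0.32 and Ptch1, the Hedgehog receptor, 0.36 ± 0.13, and neither was called. Grem1, an inhibitor of BMP ligands made by muscle and fibroblasts under the crypts, had a log2 fold change of 2.61 and was not called, and Rspo1, Rspo2 and Rspo3 were too low to be tested.

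Vessel genes were positive by about as much, with medians that hardly moved without male vehicle replicate 1 for endothelium. Of 13 blood endothelium genes 2 were called and 13 had a positive fold change, with a median of 1.45 that was 1.44 without male vehicle replicate 1, when 0 were called. Eng (endoglin, a TGF-beta co-receptor) was at 0.155 to 2.12 FPKM in 11 high libraries, 2.69 FPKM in male vehicle replicate 1 and 0.0137 to 1.21 FPKM in the low ones, with a log2 fold change of 1.98 ± 0.40. Egfl7, which endothelium secretes, had 1.45 ± 0.31. Pecam1, the junction protein of endothelium, had 0.65 ± 0.19 and was not called.

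Lymphatic genes had the highest median of all lists, 1.87 over 6 tested genes with 1 called, or 1.76 with 0 called without male vehicle replicate 1. Ccl21a, the chemokine that draws cells into lymphatics, was at 0.0416 to 13.0 FPKM in 11 high libraries, 34.6 FPKM in male vehicle replicate 1 and 0 to 7.56 FPKM in the low ones, with a log2 fold change of 2.54 ± 0.54. The genome holds near copies of this gene, so its count is uncertain. Pericyte genes had a median of 1.06 with 1 of 7 called, or 0.72 with 0 called without that library. The called gene was Rgs5 (2.47 ± 0.49), a regulator of G protein signalling in vessel mural cells. Pdgfrb, their growth factor receptor, had 0.32 ± 0.16.

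**Figure D3:**
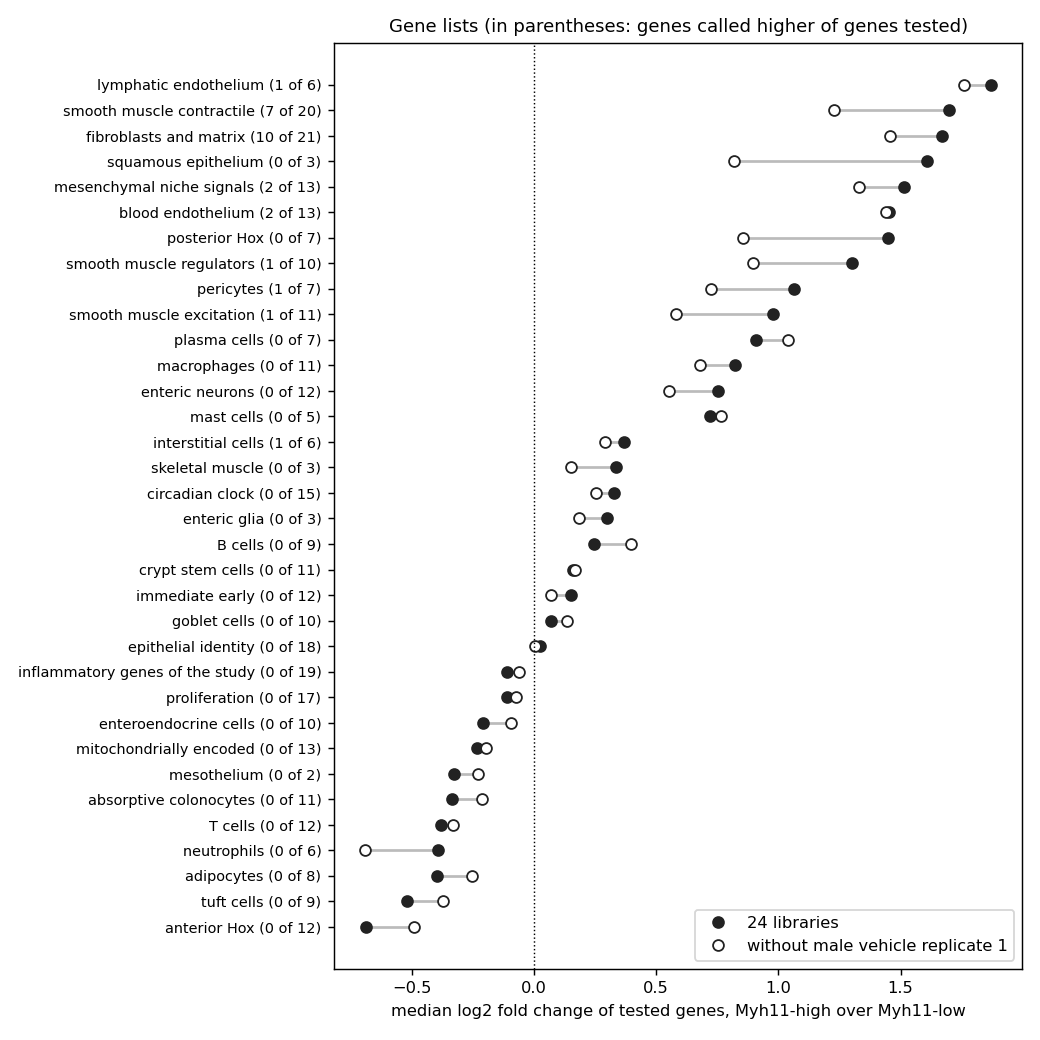
Median log2 fold change (high over low) of the tested genes of 34 gene lists, with filled points for all 24 libraries, open points without male vehicle replicate 1, a dotted line at the median of all tested genes (-0.0016) and called-higher genes of tested genes in parentheses. Lymphatic, contractile, matrix, mesenchymal niche and blood endothelium lists lie at the top. Squamous epithelium and posterior Hox genes lie there too and fall back most without that library, and epithelial identity lies on the dotted line.

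Of the 68 called genes 26 were on 1 of the lists and 42 on none. The 42 included Enpp2 (autotaxin, which makes a lipid signal, 2.39 ± 0.46), Pcp4l1 (2.78 ± 0.50) and Mustn1 (a muscle protein, 1.34 ± 0.32), each separated in 6 of 6 groups. Others, named after their values were seen, were Pgm5 (an adhesion protein of muscle, 3.87 ± 0.60), Postn (periostin, 2.25 ± 0.36), Tnc (tenascin C, 1.51 ± 0.32), Col4a1 (basement membrane collagen, 1.59 ± 0.36) and Bgn (biglycan, 1.45 ± 0.31). Pgm5 was at 15.7 FPKM in male vehicle replicate 1 and at 0.703 FPKM in the other high library of that group. Of all 68 genes, 25 were still called without male vehicle replicate 1. Sparcl1, a relative of Sparc, was at 0.487 to 7.77 FPKM in 11 high libraries, 60.4 FPKM in male vehicle replicate 1 and 0.0871 to 2.07 FPKM in the low ones, with a log2 fold change of 2.23 ± 0.39.

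Ccnj (cyclin J, chr19:40831279-40848572) was the gene called lower. It was at 0.816 to 1.74 FPKM in the high and 1.05 to 2.10 FPKM in the low libraries, with a log2 fold change of -0.43 ± 0.10, close to the threshold, and both high libraries lay below both low ones in 4 of 6 groups. Without male vehicle replicate 1 it had -0.41 ± 0.11 and was not called.

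**Figure D4:**
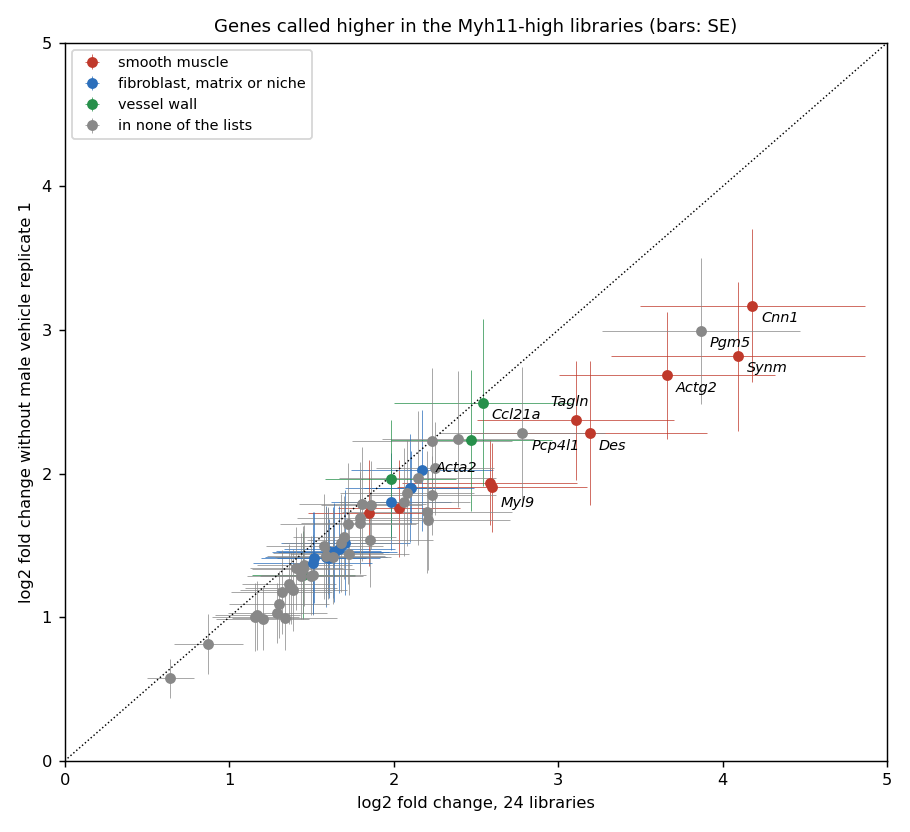
Log2 fold change of the 68 genes called higher over 24 libraries (x axis) and without male vehicle replicate 1 (y axis), with SE bars, a dotted line of equality and colour by gene list. The contractile genes and Pgm5, to the right, fall furthest under the line (Cnn1 at 4.18 and 3.17), and vessel genes lie on or near it (Ccl21a at 2.54 and 2.49).

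Markers of immune cells gave 0 calls on any list. Over all tested genes 0.418% were called higher, so 0 calls on short lists says little. Plasma cell genes had a median of 0.91, and 1.04 without male vehicle replicate 1, with 6 of 7 positive. Jchain, which joins IgA into dimers, was at 10.4 to 311 FPKM in the high and 7.81 to 332 FPKM in the low libraries, with a log2 fold change of 1.03 ± 0.43, and male vehicle replicate 1 had the lowest value of the high set. Macrophage genes had a median of 0.82 with 10 of 11 positive, and the complement gene C1qa had 1.01 ± 0.32. Mast cell genes had a median of 0.72 over 5 genes and B cell genes 0.25 over 9.

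T cell genes had a median of -0.38 with 9 of 12 negative, among them Cd7 (-0.69 ± 0.29). Neutrophil genes had a median of -0.39, which was -0.69 without male vehicle replicate 1, and S100a8 had -0.58 ± 0.86. Without female 9-week replicate 4 that median was 0.43 and S100a8 had 0.35, and the list's median difference was positive in 5 of 6 groups, so no direction is given. The inflammatory genes that the study followed had 0 of 19 called and a median of -0.11, which was 0.34 without female 9-week replicate 4, and 5 of 6 groups were positive.

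Epithelial identity genes were at nearly equal levels in both sets. None of 18 was called, where 0.418% of all tested genes were called higher, and their median log2 fold change was 0.02. Their summed level was 17765 to 24227 CPM in the high and 16830 to 23178 CPM in the low libraries. Krt8, a keratin of simple epithelium, was at 1312 to 2079 FPKM in the high and 1175 to 1948 FPKM in the low libraries (log2 fold change 0.05 ± 0.09), and Lgals4 had -0.0044 ± 0.07. In male vehicle replicate 1, where the contractile list reached 9614 CPM, the epithelial list was at 20840 CPM against a median of 20659 CPM in the other 29 libraries. Goblet, absorptive and enteroendocrine genes were lower there, at 8715 against 21445 CPM, 6178 against 11211 CPM and 128 against 399.6 CPM. Each was the lowest of the high set. Crypt stem cell genes were not lower there, at 454.0 against 454.3 CPM.

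Among epithelial cell types no gene was called. Over all tested genes 0.418% were called higher and 0.00614% lower, so 0 calls on short lists says little. Absorptive colonocyte genes had a median of -0.34, with Car1 (carbonic anhydrase 1) at 430 to 6911 FPKM in the high and 427 to 8221 FPKM in the low libraries (-0.76 ± 0.53). Goblet genes had a median of 0.07, with the mucin Muc2 at -0.38 ± 0.29, enteroendocrine genes -0.21, crypt stem cell genes 0.16 and proliferation genes -0.11.

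Tuft cell genes had 9 of 9 negative fold changes, a median of -0.52 and -0.37 without male vehicle replicate 1. Their summed level had a median of 93.5 CPM in the high libraries, from 13.3 CPM in male vehicle replicate 1 to 145.6 CPM, and of 113 CPM in the low ones, from 68.9 to 160 CPM. Trpm5, the taste channel of tuft cells, was at 0.0632 FPKM in male vehicle replicate 1 and at 2.69 to 6.13 FPKM in the low libraries, with a log2 fold change of -0.60 ± 0.30, and 2 of 6 groups had both high libraries below both low ones. Sh2d6 had -0.53 ± 0.26.

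Genes that mark position along the gut had uneven differences between the sets. Hox genes of the posterior end are used toward the rectum and those of the anterior end in the proximal colon. The 7 posterior Hox genes had a median of 1.45, or 0.86 without male vehicle replicate 1, and the 12 anterior ones -0.69, or -0.49, with 0 called in either list. Hoxd13 was at 83.8 FPKM in male vehicle replicate 1, at most 15.7 FPKM in the other high and at most 8.50 FPKM in the low libraries. Hoxb13 had a log2 fold change of 0.72 ± 0.46, from 1.69 to 138 FPKM in the other high and 2.25 to 71.1 FPKM in the low libraries.

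By group the posterior median was 1.06 in female vehicle, 3.10 in male vehicle, 2.39 in female 9-week and 0.66 in male 9-week mice, 0.00 in female 15-week and -1.37 in male 15-week mice. The anterior median was -2.08, -2.67, -2.20, -0.33, -0.28 and 3.90 in the same order. The male 15-week group therefore ran opposite to the vehicle and female 9-week groups, and the part of position along the colon in the Myh11 comparison was not tested.

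Genes of squamous epithelium, mostly keratins, which belong to the anal canal and not the colon, were high in male vehicle replicate 1 alone. The 8 genes summed to 308 CPM there and to at most 12.8 CPM in the other 29 libraries. Krt13 was at 38.4 FPKM in that library and at most 0.861 FPKM in the other high libraries. Of the 3 genes tested 0 were called. Skeletal muscle genes summed to 36.9 CPM in that library and to at most 14.1 CPM in the others, and their part in the result was not tested.

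Other lists that could follow handling of the tissue gave no calls, where 0.418% of all tested genes were called higher and 0.00614% lower. Mesothelial genes had a median of -0.33 over 2 tested genes, adipocyte genes -0.40 over 8, mitochondrially encoded genes -0.23, immediate early genes 0.15 and circadian clock genes 0.33. The clock list summed to 1772 CPM in male vehicle replicate 1 and to at most 1221 CPM elsewhere.

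The contractile and matrix lists were positive in every study group, and their sizes differed. The contractile median was 0.82 in female vehicle, 3.40 in male vehicle, 1.18 in female 9-week, 1.33 in male 9-week, 0.59 in female 15-week and 1.78 in male 15-week mice. The mean log2 CPM of the list separated high from low in 6 of 6 groups. The matrix median was 1.10, 2.69, 1.25, 1.13, 1.04 and 2.64 in the same order, with 4 of 6 groups separated. The blood endothelium median was 1.04, 1.75, 0.85, 1.46, 0.35 and 2.21, with 3 of 6 separated.

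**Figure D5:**
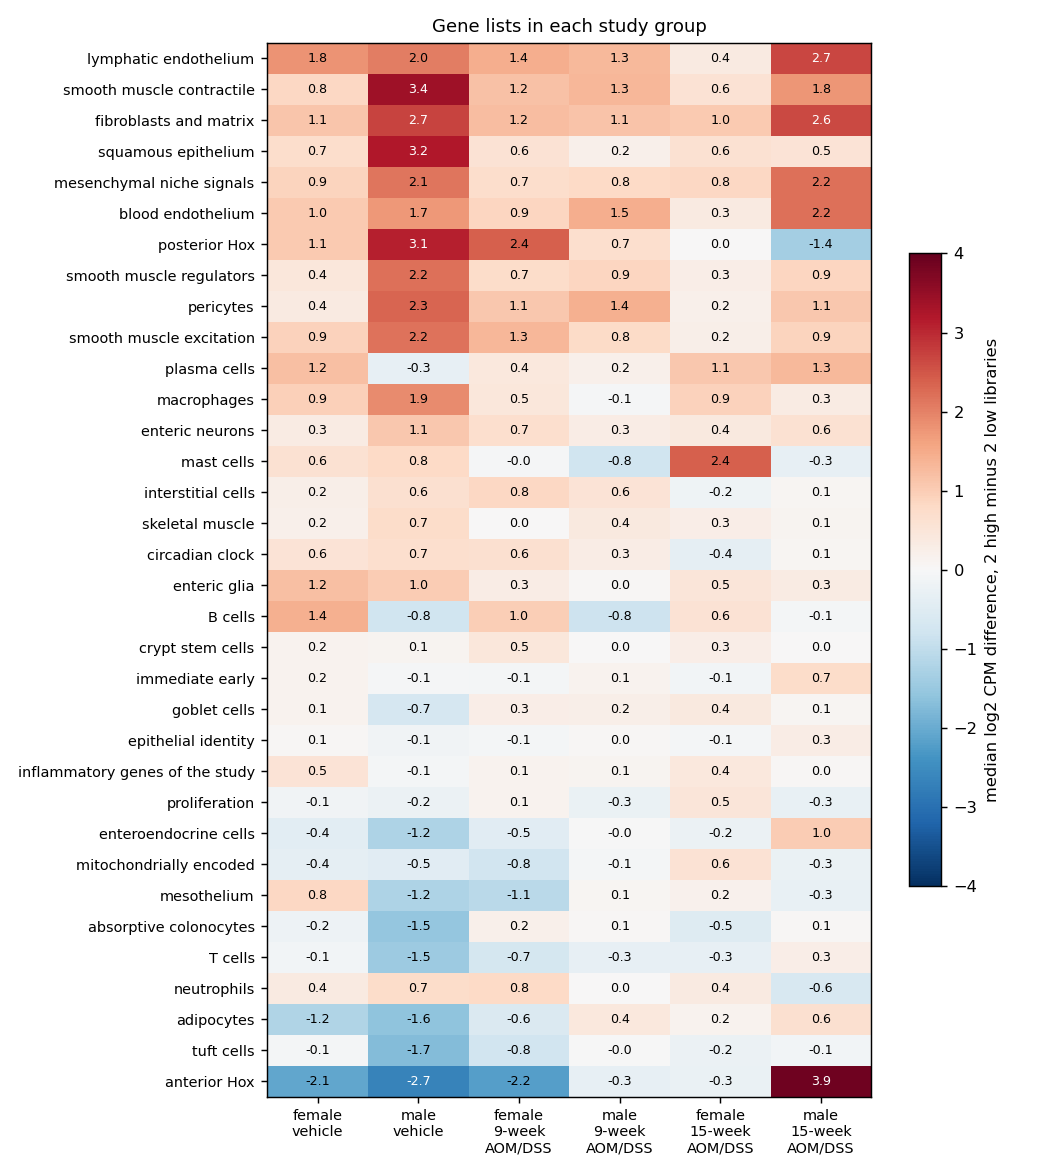
Median log2 CPM difference (2 high minus 2 low libraries) of each gene list in each study group, red for positive and blue for negative. Contractile, matrix and vessel lists are positive in all 6 columns, the tuft cell list is negative in all 6, and the Hox, B cell and epithelial identity lists change sign between columns.

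Whether the difference depended on sex or treatment was tested as an interaction over the same 24 libraries. With edgeR 0 of 16276 genes passed an adjusted p under 0.05 for sex (0.0%), while 1042 had an unadjusted p under 0.05, and DESeq2 called 9. For AOM/DSS against vehicle 0 genes passed (0.0%), 671 had an unadjusted p under 0.05 and DESeq2 called 0. Without female vehicle replicate 2 the count for treatment was 78, so this answer rests on that library.

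Subsets alone left little to call with edgeR. In vehicle mice alone 0 genes were called (856 higher and 331 lower at an unadjusted p under 0.05), in AOM/DSS mice alone 0 (469 and 136), in females alone 0 (570 and 360) and in males alone 43 higher and 0 lower (946 and 490). The 68 genes, which were chosen as higher over these same libraries, had median log2 fold changes of 2.4, 1.39, 1.35 and 2.17 in that order. The male and vehicle subsets hold male vehicle replicate 1, and these medians are not shown to differ.

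Likeness to Myh11 was measured as Pearson's r on log2 CPM centred within groups over the 30 libraries, which share depth and scaling, as a description. The 10 most alike genes were Cnn1 (0.965), Tagln (0.964), Actg2 (0.963), Myl9 (0.955), Des (0.955), Acta2 (0.947), Sparcl1 (0.936), Synm (0.928), Lmod1 (0.921) and Synpo2 (0.918). Over the 29 libraries without male vehicle replicate 1 these r lay between 0.877 and 0.948. Sparcl1 was the one of the 10 outside the contractile list.

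The 10 most opposite genes had r from -0.719 to -0.858. Far2, an enzyme that makes fatty alcohols, had -0.858, or -0.775 without that library, and was at 0.533 to 3.96 FPKM in the high and 1.19 to 3.45 FPKM in the low libraries (log2 fold change -0.68 ± 0.21, not called). Rgs13 (-0.725) and Gnat3 (-0.719), both known from tuft cells, were at 0.0387 and 0 FPKM in male vehicle replicate 1, and had r of -0.554 and -0.511 without it. The others included Clcn1, Sv2c, Slc25a35, Trim38 and Supv3l1.

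The matrix list went with the vessel lists. The mean log2 CPM of the matrix list, centred within groups, had an r of 0.88 with Myh11 over 30 libraries, against 0.97 with the pericyte list, 0.94 with blood endothelium and 0.92 with lymphatic endothelium. Over the 29 libraries without male vehicle replicate 1 these values were 0.84, 0.97, 0.96 and 0.94. The contractile list had 0.96 with Myh11 and 0.83 with the matrix list. The tie was not particular to vessels: macrophage genes had an r of 0.84 with the matrix list, or 0.80 without male vehicle replicate 1. Plasma cell genes had an r of 0.46 with the matrix list, which was 0.79 without male vehicle replicate 1. These r share libraries and are given with no test.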

How the data were processed

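RNA of 30 colon scrapings was sequenced, with 5 mice in each of 6 groups taken from the labels. The authors trimmed reads with Trim Galore and aligned them by STAR to GRCm38 (mm10). Their featureCounts table holds the deposited raw counts of 46078 genes, and the deposited FPKM values are StringTie estimates by the authors for each library. The TPM columns were not used. The study's methods report that most reads were duplicates and describe no removal, so low counts rest on fewer molecules than reads and counting limits cover counting error only. The members and gene lists were chosen with earlier results of these data known.

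Counts were tested with edgeR 4.0.16 in R 4.3.3 (filterByExpr, TMM factors 0.835 to 1.10 over the 24 libraries, glmQLFit and glmQLFTest, common biological coefficient of variation 0.305). The study's methods name DESeq2, which was an alternative here (1.42.0). log2 CPM used a prior count of 2. The fit was tested on simulated data. Named genes were Myh11, Acta2 and Des, the 3 members of each list with the highest mean FPKM, called genes separated in all 6 groups (at most 10 each way), the 5 called genes each way with the highest mean FPKM, the 10 most like and 10 most opposite to Myh11, and any called for an interaction. Other genes were named after their values were seen. Alternatives changed scaling, test, filters, ranking, libraries and pairing.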

Additional observations from a re-analysis of the deposited data

Results flagged for a closer look

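Within the 6 groups of 5, 7 measures gave 42 sets of values, of which chance alone would mark about 1 in 20, and 13 had a library whose gap to the nearest other exceeded 0.71 of the group's range. Male vehicle replicate 1 was marked for Myh11 (1534 CPM against 35.9 in the next library), Acta2 (1185 against 32.9) and Des (725 against 10.3). Female vehicle replicate 1 was marked for the same genes, at 12.6, 12.3 and 3.94 CPM against 1.54, 4.19 and 0.910. Female 9-week AOM/DSS replicate 3 was marked for Myh11 (44.9 CPM against 12.9) and Des (28.9 against 6.39), and male 15-week AOM/DSS replicate 2 for Des (10.6 CPM against 2.32).

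Among library measures, and each time only within its own group, female vehicle replicate 5 had the fewest counts (9265804 against 23483517 in the next), female 9-week AOM/DSS replicate 5 the fewest genes detected (19171 against 20431) and the lowest TMM factor (0.913 against 1.03), and female vehicle replicate 4, a middle library, the highest share of mitochondrially encoded counts (15.6% against 8.55%). Other groups held more extreme libraries, with 17559 genes detected in male 15-week AOM/DSS replicate 4 and a TMM factor of 0.832 and a share of 23.0% in female 15-week AOM/DSS replicate 2.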

How the results depend on the processing

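Against 0.418% of tested genes called higher and 0.00614% lower, DESeq2 called 0.817% higher, no filter on low counts 0.632% and 0.0291%, no FPKM minimum 0.872% higher, Myh11 as a continuous term over 30 libraries 1.4% and 0.221%, and 1 against 1 library per group 0.188% and 0.0303%. DESeq2 size factors and the ranking by Acta2 and Des gave 0.0% lower. Vehicle, AOM/DSS and females alone each gave 0.0% both ways, and males alone 0.274% and 0.0%. Leaving out 1 library gave 0.0302% to 0.718% higher and 0.0% to 0.0181% lower, and 0 to 78 genes for the treatment interaction. Chosen after seeing the data, the fit without the male vehicle group gave 0.044% and 0.0%, and DESeq2 without male vehicle replicate 1 gave 0.0122% lower.

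Replicate numbers did not pair the libraries (r from -0.581 to 0.467 between same-numbered ones, and 4 of 30 correlated best with their own number). The fit with the replicate block called 0.0% both ways (702 genes higher and 402 lower at an unadjusted p under 0.05), as did the block without male vehicle replicate 1.

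For the interactions, DESeq2 gave 9 genes for sex, and no filter on low counts 151 for sex and 261 for treatment. Genes detected differed by 703 with the ranking by Acta2 and Des (exact permutation p = 0.0136) and by 499 with at least 10 counts (exact permutation p = 0.0241), and the mitochondrial share by -4.74 percentage points with 1 against 1 (exact permutation p = 0.0313) and -2.48 with Acta2 and Des (exact permutation p = 0.0216). Leaving out 1 library gave differences of 174648 to 2132883 counts, 323 to 666 genes (exact permutation p from 0.0272 to 0.221) and -2.22 to -0.251 points. The causes were not tested. Of 1360 list medians under alternatives 102 moved by at least the median SE of the members, and of 2760 values of called genes 1148 missed a threshold for a call. Low counts limit Cnn1, Des and Synm, with medians of 9, 25.5 and 4.5 counts in the low libraries.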
